A study of Mus musculus with 9 samples.

Results

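RNA of sorted microglia labelled Fabry disease (FD) was compared with that of microglia labelled littermate control (WT), over autosomal genes only. Of 24421 genes in the count table, 15340 could be tested, 14824 of them autosomal, and 45 autosomal genes passed the test between 3 FD and 3 WT libraries. A gene passed, or was called, at an adjusted p below 0.05 with a change of more than 1 on the log2 scale, in the fit of all 9 libraries of the series. The 45 genes were then divided by position. Another called autosomal gene lay within 2 Mb for 18 genes in 7 groups, called clustered here, and for 27 genes, called isolated here, none did. The functions of the isolated genes are described first.

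Gla encodes α-galactosidase A, the lysosomal hydrolase that removes the terminal galactose of globotriaosylceramide and related neutral glycosphingolipids, and its loss causes Fabry disease. Microglia are the resident macrophages of the brain. Mice of a mutant line that is bred apart can differ from their controls at sites other than the mutated gene, and a sequence variant that alters expression, or a stretch of another strain's chromosome, tends to act on genes close to it. Genes that change together with a neighbour were therefore kept apart from those that change alone.

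The methods give FD mice as Gla y/-, from a line maintained as homozygotes. The WT libraries carry the label littermate control, although the methods describe littermates for the lines kept as heterozygotes and not for the Gla line, so they are not taken here as littermates of the FD mice. The other 3 libraries of the series were labelled mucolipidosis type IV (MLIV, Mcoln1-/-, from a line maintained as heterozygotes). All were labelled strain C57CL6J and sorted as live CX3CR1+, CD45+ and CD11b+ brain cells. The age stands at 4 months in the title of the series and at 2 months in the methods, and the methods name 4 mice per condition against 3 libraries per group here. No source ties a library to an animal, so the spread between FD libraries may be technical alone. In the other groups the spread, on which p-values also rest, was not technical alone. MLIV libraries differed in sex-linked genes and those labelled WT in Mcoln1, as given below. Whether each of those libraries came from its own animal is not known. Totals were 28781980 to 31079308 counts in FD libraries, against 22772260 to 37117851 in those labelled WT. FD replicate 3 had the fewest genes with a count (12032, against 15526 to 22932 in the other 8) and the lowest correlations with the other libraries, 0.878 to 0.905. The 13 microglial identity genes, such as P2ry12 and Tmem119, summed to 25200 to 27900 CPM (counts per 1e+06 of the scaled library) in FD libraries, against 25500 to 29400 CPM in those labelled WT.

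Several libraries went against their labels. Gla itself (chromosome X, 134588169 to 134601005) had 4.82, 4.83 and 4.56 CPM in FD libraries, against 4.59, 8.17 and 10.8 CPM in those labelled WT, so it did not settle the FD label. Mcoln1 had 892 to 1442 counts in FD libraries. Among those labelled WT it had 1082, 1517 and 2 counts, and in MLIV libraries 0, 0 and 18 counts, so the library labelled WT replicate 3 was at the level of the Mcoln1-/- libraries. Its counts and those of MLIV replicate 2 also gave the lowest chi-square per gene of the 36 pairs of libraries, 26.96. Xist, the RNA of the inactive X chromosome of female cells, had 1522, 1459 and 1358 CPM in FD libraries, against 4.12, 0.523 and 0.850 CPM in those labelled WT. The Y-linked genes Kdm5d, Eif2s3y and Uty had 0 counts in FD libraries, against 583 to 1695 counts in those labelled WT, which goes against a male Gla y/- genotype. FD and WT are written here for the libraries so labelled. An effect of FD, of sex and of the colony cannot be told apart between these 6 libraries. The library MLIV replicate 1 had 1449 CPM of Xist and 0 counts of these Y-linked genes, and in it 42 of the 45 genes lay nearer to the level of the libraries labelled WT than to that of FD on the log2 scale. The exceptions were Marcksl1, Pde2a and Stox2, and without the library labelled WT replicate 3 also Nrp1, which leaves 41. With all libraries labelled WT, the same count was 42 in MLIV replicate 2 and 41 in MLIV replicate 3. The 45 genes were chosen for a difference between FD and WT, and the same count over all tested genes was not made. An effect of sex on these genes was not tested. MLIV replicate 2 held signals of both sexes, with 1027 CPM of Xist beside 385 counts of Kdm5d, 301 of Eif2s3y and 422 of Uty. MLIV replicate 3 had 128 counts of Xist and 1022 of Kdm5d, where MLIV replicate 1 had 50445 and 0.

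In FD microglia the glutamate transporter Slc1a3, the creatine synthesis enzyme Gatm, the phosphodiesterase Pde2a and 20 other autosomal genes were upregulated, while the protease inhibitor Spint1, the retinoic acid carrier Crabp2, the calcium sensor Kcnip3 and 19 others were downregulated. The 45 genes were 0.304% of the autosomal genes tested, with 0.155% higher and 0.148% lower. At an unadjusted p below 0.05 there were 1186 autosomal genes, or 8% of those tested. FD libraries and those labelled WT did not overlap in any of the 45 genes, a state that 12.7% of all autosomal genes tested shared. The median absolute log2 change was 2.12 for isolated genes and 2.49 for clustered genes, against 0.32 over all autosomal genes. More than an 8-fold change was found for 13 genes, 7 isolated and 6 clustered. Without the library labelled WT replicate 3 the count of called genes was again 45, 36 of them the same, and without FD replicate 3 it was 67, with 41 of the same genes. A fit of the 6 FD and WT libraries alone called 25 of the 45. The clustered genes it did not call were Mapkapk3, Hist3h2a, Atrnl1, Bcl2a1b, Ablim1, Abhd14b, Tagap1 and Marcksl1, at adjusted p-values of 0.0802 for Mapkapk3 to 0.299 for Marcksl1. Isolated genes it did not call included Stox2, Naalad2, Osbpl3, Zfp36l1, Serpine2, Nrp1, Limd1, Slamf8, Ccdc162, Rnf26 and Lcn2, at adjusted p-values of 0.057 for Stox2 to 0.871 for Lcn2.

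**Figure D1:**
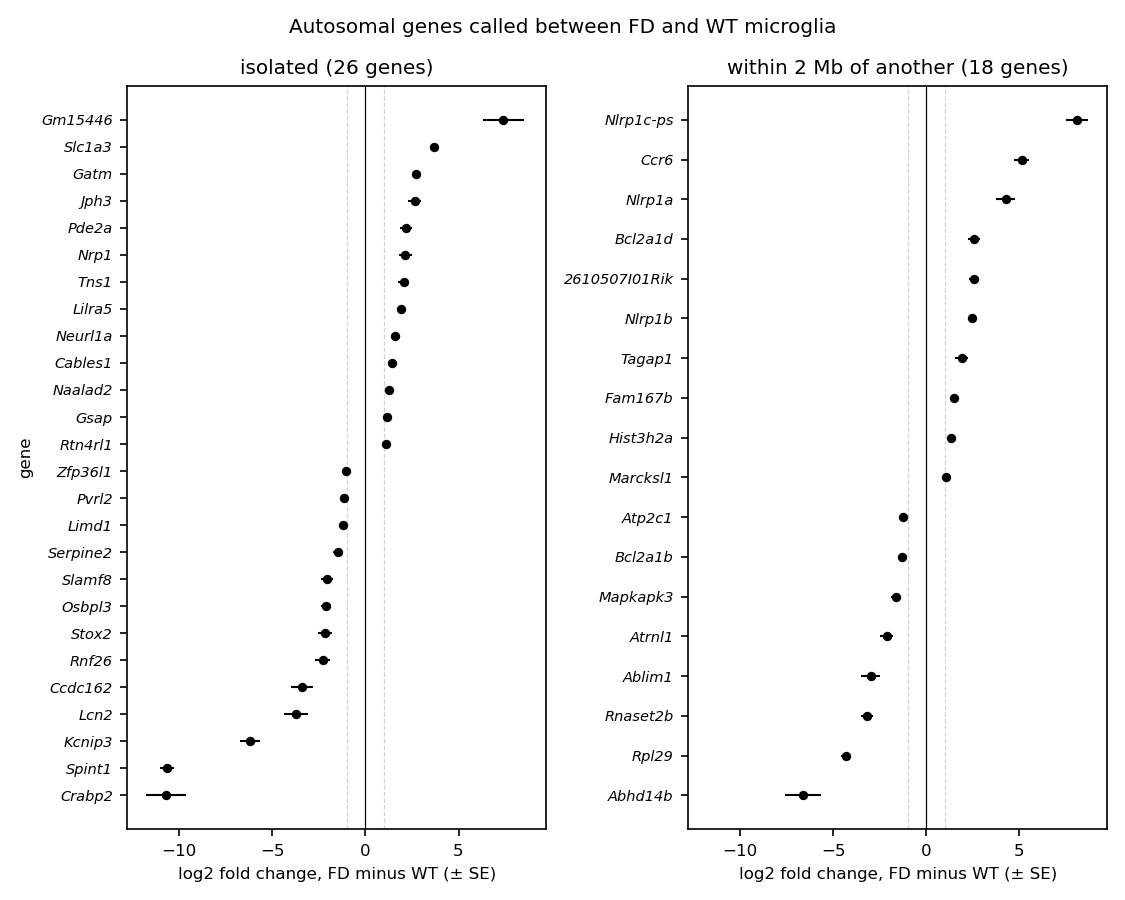
Log2 fold changes of FD against WT for 26 of the 27 isolated genes (left) and the 18 genes within 2 Mb of another called gene (right), as points with bars of 1 SE from edgeR's fit of 9 libraries. Dashed lines mark the threshold of 1 on either side of 0, and the changes reach from -10.69 for Crabp2 to 8.09 for Nlrp1c-ps.

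Among the isolated genes, 4 that move or convert small molecules rose. Slc1a3 (chromosome 15, 8634124 to 8710807; positions are mm10) encodes the glutamate and aspartate transporter GLAST, which in brain is best known from astrocytes. It had 2903, 2079.5 and 2882 CPM in FD libraries, against 141, 223 and 246 CPM in those labelled WT, a change of 3.69 ± 0.23, adjusted p = 6.86e-06 by edgeR's quasi-likelihood test. The other 8 astrocyte markers examined, Aqp4 and Gfap among them, summed to 45.7, 16.6 and 67.5 CPM in FD libraries, against 72, 19.3 and 49 CPM in those labelled WT. The level of Slc1a3 thus stood apart in the FD libraries while the sum of the other astrocyte markers overlapped between groups. Gatm (chromosome 2, 122594473 to 122611277), the amidinotransferase of the first step of creatine synthesis, had 586, 612 and 475 CPM in FD libraries, against 71.4, 83 and 99.3 CPM in those labelled WT (2.72 ± 0.16, adjusted p = 6.03e-06).

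Pde2a (chromosome 7, 101421691 to 101512829), a phosphodiesterase that cleaves cAMP and cGMP, had 36.7, 46.1 and 46.5 CPM in FD libraries, against 9.48, 6.19 and 12.9 CPM in those labelled WT (2.18 ± 0.30, adjusted p = 0.00672). In MLIV libraries it had 20.9, 25.2 and 13.2 CPM, above the libraries labelled WT. Of its transcript windows of 100 bases, 60.7% were shared with the overlapping transcript Gm45837, which the count table does not list. Naalad2 (chromosome 9, 18323021 to 18385928), a relative of glutamate carboxypeptidase II, had 84.1, 93.5 and 62.5 CPM in FD libraries, against 31.8, 34.5 and 32 CPM in those labelled WT (1.29 ± 0.21, adjusted p = 0.0234). The calls of Slc1a3, Gatm and Pde2a held under every alternative fit, whereas the adjusted p of Naalad2 was 0.088, 0.053, 0.0533 and 0.0729 with WT replicate 1, WT replicate 2, FD replicate 1 or FD replicate 2 left out.

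Spint1, Serpine2 and Lcn2 fell, and Spint1 was nearly absent. Spint1 (chromosome 2, 119237360 to 119249513) encodes a Kunitz-type inhibitor of the serine proteases that activate hepatocyte growth factor. It had 2, 3 and 0 counts in FD libraries, against 1982, 3079 and 4085 counts in those labelled WT, which is 1780-fold lower in FD with a counting interval (95%, exact) of 761 to 5470-fold and an adjusted p of 1.9e-08. The FD libraries were at or under a floor of 3 counts, so the fitted value of -10.66 ± 0.37 depends on the prior count of the fit. Serpine2 (chromosome 1, 79794321 to 79858665), an inhibitor of thrombin and plasminogen activators, had 340.1, 318 and 253 CPM in FD libraries, against 603, 754 and 1189 CPM in those labelled WT (-1.48 ± 0.24, adjusted p = 0.0182). Of 13 tested inhibitors of the Kunitz and serpin families these were the 2 past the test, both lower.

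Lcn2 (chromosome 2, 32384637 to 32387739), a siderophore-binding protein of neutrophil granules and of inflamed tissue, had 8, 12 and 2 counts in FD libraries, against 32, 112 and 176 counts in those labelled WT. Its level was 14.1-fold lower in FD (9.17 to 22.9-fold by counting error, -3.72 ± 0.66, adjusted p = 0.0342). The other 9 neutrophil markers summed to 5.54, 5.68 and 1.34 CPM in FD libraries, against 28, 55.8 and 52.2 CPM in those labelled WT, with 7 of them lower at an unadjusted p below 0.05, 0 past edgeR's test and 5 past that of DESeq2. Their part in the change of Lcn2 was not tested, and fewer neutrophils and less RNA per cell cannot be told apart in sorted cells read in bulk. The cells were sorted as CX3CR1+, CD45+ and CD11b+, and how far that sort left out neutrophils was not tested here. The adjusted p of Serpine2 was 0.0723 and 0.0838 with FD replicate 2 or FD replicate 3 left out, and that of Lcn2 was 0.053 to 0.0937 with WT replicate 2, the library labelled WT replicate 3, FD replicate 1, MLIV replicate 1, MLIV replicate 2 or MLIV replicate 3 left out. The call of Spint1 held under every alternative fit that tested it.

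Receptors or adhesion proteins of the cell surface are encoded by 5 isolated genes, with 3 higher and 2 lower in FD. Nrp1 (chromosome 8, 128359073 to 128505475), a coreceptor for class 3 semaphorins and vascular endothelial growth factor, had 348, 260.3 and 306 CPM in FD libraries, against 61.7, 36.4 and 108 CPM in those labelled WT (2.15 ± 0.35, adjusted p = 0.0345). Lilra5 (chromosome 7, 4237754 to 4243463), an immunoglobulin-like receptor known from myeloid cells in human, had 43.8, 50.9 and 71.5 CPM in FD libraries, against 12.5, 13.2 and 18.6 CPM in those labelled WT (1.91 ± 0.23, adjusted p = 0.00206). Rtn4rl1 (chromosome 11, 75193993 to 75267762), a member of the Nogo receptor family, had 246, 216 and 232 CPM in FD libraries, against 111, 120.2 and 91 CPM in those labelled WT (1.11 ± 0.16, adjusted p = 0.00776). Each of the 3 was above its highest library labelled WT in every FD library, and none of the 45 called genes showed an overlap. Slamf8 (chromosome 1, 172581377 to 172590568), a receptor of the SLAM family found on myeloid cells, had 11.6, 7.79 and 4.15 CPM in FD libraries, against 24.9, 39.3 and 32.5 CPM in those labelled WT (-2.04 ± 0.32, adjusted p = 0.0175). Pvrl2 (chromosome 7, 19716644 to 19749573), also named Nectin2, a cell adhesion molecule, had 23, 26.9 and 25.9 CPM in FD libraries, against 56.2, 59.8 and 48.5 CPM in those labelled WT (-1.12 ± 0.20, adjusted p = 0.0348).

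Of these receptors, Lilra5 kept its call under every alternative. Nrp1 was the least stable, with an adjusted p of 0.0505 to 0.361 with WT replicate 1, FD replicate 1, FD replicate 2, FD replicate 3, MLIV replicate 1, MLIV replicate 2 or MLIV replicate 3 left out. Rtn4rl1 stayed significant without the library labelled WT replicate 3 (adjusted p = 0.0141) but its change of 0.998 was then just under the threshold of 1. The adjusted p of Slamf8 was 0.0723 with FD replicate 2 left out, and that of Pvrl2 was 0.065 to 0.147 with WT replicate 1, WT replicate 2, FD replicate 1, FD replicate 2 or MLIV replicate 2 left out.

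Tns1 and Jph3 rose. Tns1 (chromosome 1, 73910231 to 74124449), which encodes tensin 1 and ties actin filaments to integrins at focal adhesions, had 221, 233 and 152 CPM in FD libraries, against 49.5, 37.3 and 59.3 CPM in those labelled WT (2.06 ± 0.29, adjusted p = 0.0126). Jph3 (chromosome 8, 121730559 to 121791083), a junctophilin of brain that holds the endoplasmic reticulum against the plasma membrane, had 34.1, 36.9 and 49.7 CPM in FD libraries, against 5.32, 6.71 and 7.26 CPM in those labelled WT (2.64 ± 0.34, adjusted p = 0.00366). Tns1 was intermediate in the MLIV libraries, at 62.4, 114 and 141 CPM, whereas Jph3 had 3.22, 5.94 and 8.84 CPM. The adjusted p of Tns1 was 0.0623, 0.0533 and 0.0607 with WT replicate 1, FD replicate 1 or FD replicate 2 left out. Tns1 also lost its call with the replicate number as a block. The same held with the library labelled WT replicate 3 and FD replicate 3 both left out, and its largest adjusted p over all fits was 0.309. Jph3 held under every alternative.

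Crabp2, Kcnip3 and Osbpl3 fell. Crabp2 (chromosome 3, 87948693 to 87953372), the cellular retinoic acid-binding protein that delivers its ligand to nuclear receptors, had 0, 1 and 0 counts in FD libraries, against 818, 1087 and 348 counts in those labelled WT. That is 2190-fold lower in FD, although with 1 count in all the counting interval runs from 392 to 86500-fold, and the fitted value of -10.69 ± 1.06 (adjusted p = 0.00101) again depends on the prior count. Kcnip3 (chromosome 2, 127456498 to 127522094), a calcium-binding protein that acts on potassium channels and as a transcriptional repressor, had 2, 14 and 24 counts in FD libraries, against 874, 1066 and 1083 counts in those labelled WT, a level 73.4-fold lower (53.8 to 103-fold, -6.17 ± 0.53, adjusted p = 0.00017). Both genes were near 0 in every FD library and well counted in every library labelled WT and every MLIV library. Osbpl3 (chromosome 6, 50293327 to 50456170), an oxysterol-binding protein relative that transfers lipids at membrane contacts, had 5.35, 4.30 and 2.88 CPM in FD libraries, against 21.6, 16.2 and 16.6 CPM in those labelled WT (-2.12 ± 0.29, adjusted p = 0.00547). For Crabp2 the adjusted p was 0.0536 and 0.141 with FD replicate 2 or FD replicate 3 left out. For Osbpl3 and Kcnip3 no removal of a single library ended the call. In the fit of FD and WT libraries alone the adjusted p of Osbpl3 was 0.0802.

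Another 7 of the isolated genes encode proteins of mixed functions, among them ubiquitin ligases, a kinase adaptor and an RNA-binding protein. Cables1 (chromosome 18, 11839274 to 11945627), an adaptor between cyclin-dependent kinases and the Abl tyrosine kinase, had 344, 446 and 369 CPM in FD libraries, against 138, 136 and 155 CPM in those labelled WT (1.43 ± 0.14, adjusted p = 0.000322). Reads were counted without regard to strand, and 31.7% of its transcript windows were shared with the antisense gene Gm6277, whose reads cannot be told apart there. Neurl1a (chromosome 19, 47178820 to 47259441), a ubiquitin ligase, had 145, 152 and 132 CPM in FD libraries, against 42.4, 42 and 56.2 CPM in those labelled WT (1.61 ± 0.16, adjusted p = 0.000461). Gsap (chromosome 5, 21186267 to 21291701), known as the γ-secretase activating protein, had 123, 116 and 131 CPM in FD libraries, against 59.2, 55.8 and 51.4 CPM in those labelled WT (1.16 ± 0.18, adjusted p = 0.0131). These 3 genes rose, and each kept its call under every alternative fit, although Gsap did not pass at an adjusted p below 0.01.

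The other 4 of these regulators fell. Rnf26 (chromosome 9, 44110781 to 44113051), a ubiquitin ligase of the endoplasmic reticulum, had 4.05, 5.55 and 1.34 CPM in FD libraries, against 15.5, 15.2 and 22.9 CPM in those labelled WT (-2.29 ± 0.42, adjusted p = 0.0399), and 61.5% of its windows were shared with other transcripts. Zfp36l1 (chromosome 12, 80107760 to 80113013), which binds AU-rich elements and promotes the decay of the mRNAs that hold them, had 188, 244 and 215 CPM in FD libraries, against 407, 540.4 and 367 CPM in those labelled WT (-1.02 ± 0.16, adjusted p = 0.0182), with 47.6% of its windows shared with an antisense transcript or a pseudogene. Limd1 (chromosome 9, 123478701 to 123521552), a LIM domain scaffold, had 15.9, 16 and 10.7 CPM in FD libraries, against 33.6, 32.7 and 33.2 CPM in those labelled WT (-1.22 ± 0.22, adjusted p = 0.0342). For each of these 3 genes every FD library lay below the lowest library labelled WT, and none of the 45 called genes showed an overlap. Stox2 (chromosome 8, 47180048 to 47352348), a protein with a winged helix domain, had 2.58, 4.43 and 4.15 CPM in FD libraries, against 18.6, 16.7 and 14.9 CPM in those labelled WT (-2.17 ± 0.40, adjusted p = 0.0399). The groups did not overlap for Stox2 either.

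None of these 4 downregulated genes kept its call throughout. The adjusted p was 0.0781 and 0.104 with WT replicate 2 or FD replicate 1 left out for Zfp36l1 and 0.0519 to 0.106 with WT replicate 1, WT replicate 2, the library labelled WT replicate 3, FD replicate 1, MLIV replicate 1, MLIV replicate 2 or MLIV replicate 3 left out for Rnf26. It was 0.0547 to 0.106 with WT replicate 1, WT replicate 2, the library labelled WT replicate 3, FD replicate 1, FD replicate 2, MLIV replicate 1 or MLIV replicate 2 left out for Limd1. Stox2 gave 0.065 to 0.204 with WT replicate 1, WT replicate 2, the library labelled WT replicate 3, FD replicate 1, FD replicate 2 or MLIV replicate 2 left out. Stox2 was also the 1 gene of the 45 whose level in MLIV libraries, 4.19, 3.38 and 1.75 CPM, overlapped with that of FD.

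For 2 isolated genes no role is given in the sources used here. Gm15446 (chromosome 5, 109933563 to 109941710) had 374, 154 and 562 counts in FD libraries, against 4, 0 and 2 counts in those labelled WT, 187-fold higher in FD (85.6 to 511-fold by counting error, 7.40 ± 1.11, adjusted p = 0.0113). The MLIV libraries held 2, 0 and 0 counts of it. Of its transcript windows 16.2% were shared with Zfp932 on the same strand. It kept its call under every alternative fit that tested it, but did not pass at an adjusted p below 0.01. Ccdc162 (chromosome 10, 41538849 to 41606595) had 2.08, 1.64 and 0.536 CPM in FD libraries, against 18.4, 20.6 and 6.01 CPM in those labelled WT (-3.39 ± 0.59, adjusted p = 0.0308), and its adjusted p was 0.0955, 0.0897 and 0.0981 with WT replicate 1, WT replicate 2 or FD replicate 2 left out.

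**Figure D2:**
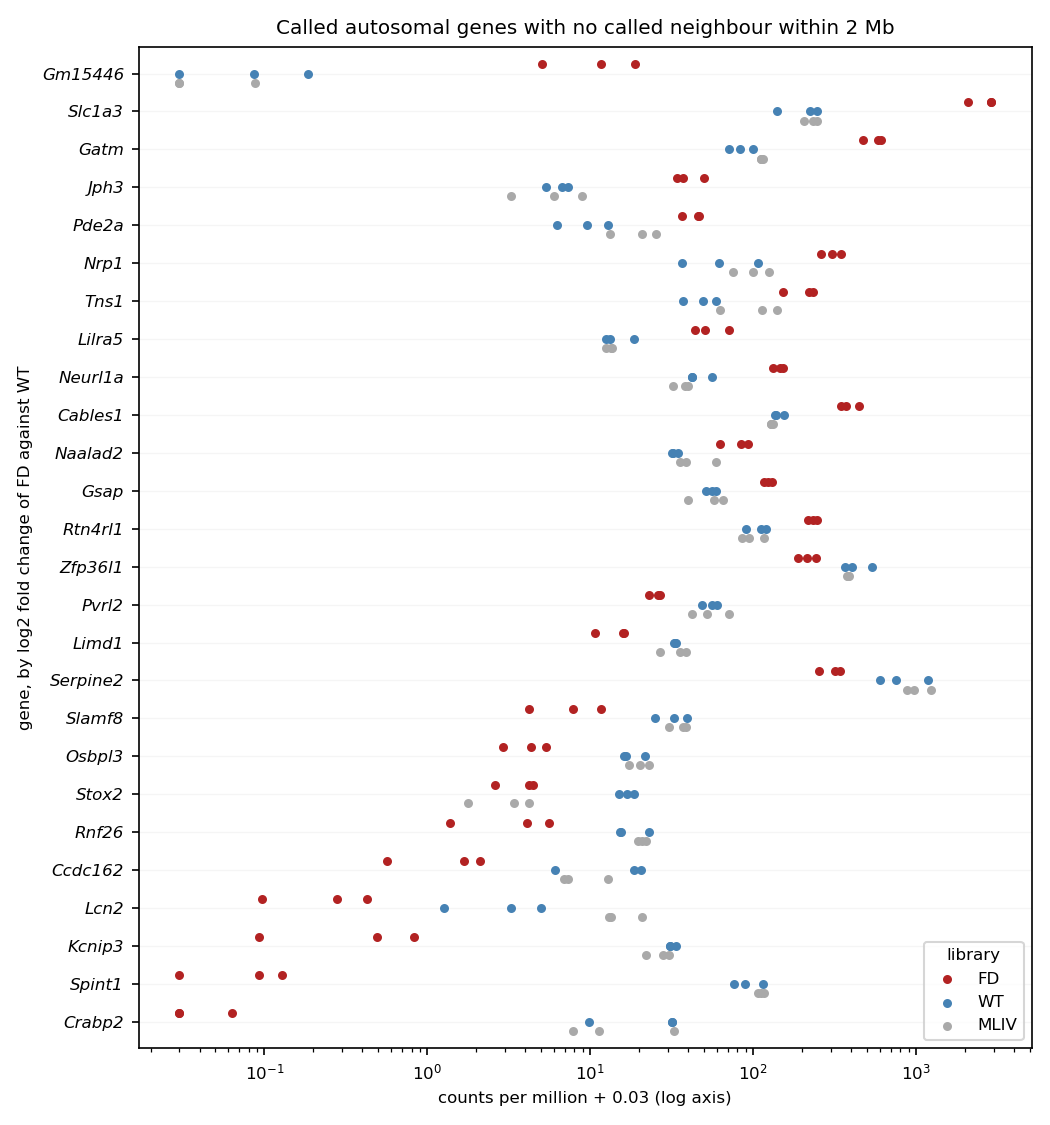
Level of 26 of the 27 isolated genes in 3 FD (red), 3 WT (blue) and 3 MLIV (grey) libraries, 1 point per library, on a log axis of CPM after adding 0.03 so that 0 can be drawn. Genes are ordered by fold change, and for each gene the FD points lie apart from the WT points. For Stox2 the MLIV points overlap with FD.

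Windows of 0.5 to 5 Mb gave 16 to 23 clustered genes, and a window of 10 Mb gave 28. Within 2 Mb of another called gene lay 18 of the 45, where 10.7% of all autosomal genes tested (1592 of 14824) had a called gene that near. The clustered genes nearest the limit were Atp2c1 and Rpl29, 0.908 Mb apart, and Mapkapk3 and Abhd14b, 0.802 Mb apart. The isolated genes nearest to another were Spint1 and Gatm, 3.34 Mb apart, followed by Rtn4rl1 at 3.91 Mb from Nlrp1c-ps. On the other side of Gatm, Kcnip3 lay 4.85 Mb away. A window of 5 Mb would thus place Spint1, Gatm and Kcnip3 among the clustered genes. Whether these genes share a variant of the colony was not tested. Chromosome 9 held 10 of the 45 genes among 855 tested there (1.17%, against 0.304% of all autosomal genes tested). Among these 10 were Bcl2a1d and Bcl2a1b and a group of 4 neighbours, described below. Of the tested genes within 2 Mb that were not called themselves, 43 of 424 around the clustered genes (10.1%) and 128 of 1167 around the isolated genes (11%) had an unadjusted p below 0.05. Only 1 of them, Plcb2 at 0.509 Mb from Spint1, passed at an adjusted p of 0.05, with a change under 2-fold. With neighbours at any fold, Spint1 would thus be clustered.

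**Figure D3:**
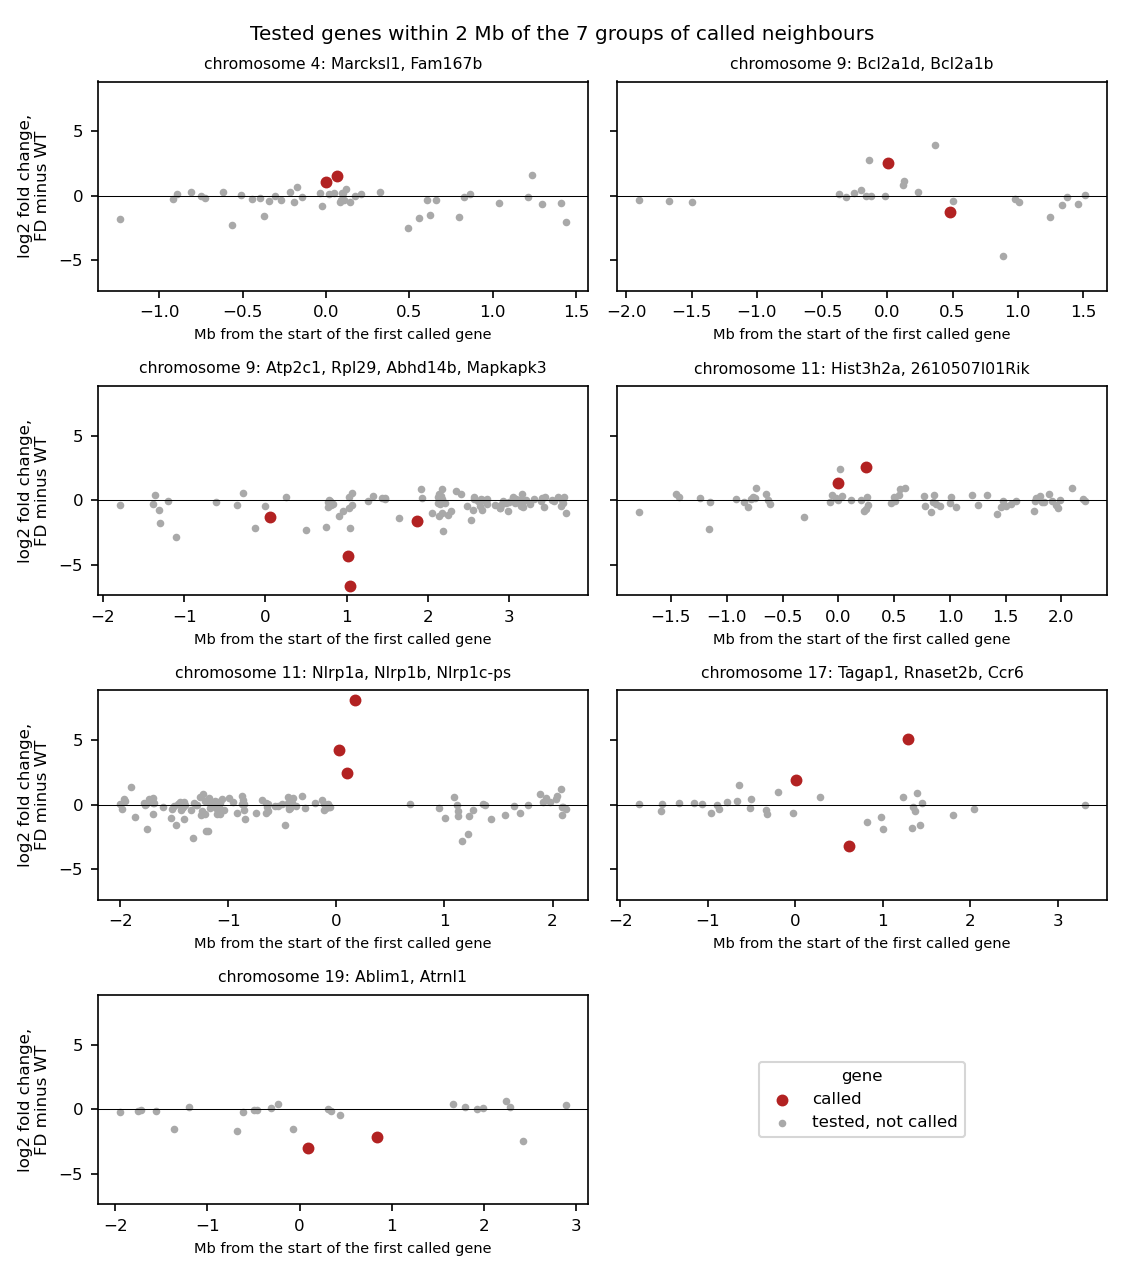
Log2 fold change of FD against WT for every tested gene within 2 Mb of the 7 groups of called neighbours, plotted by its midpoint in Mb from the start of the first called gene of the group. Red points are called genes and grey points the other tested genes, of which 43 of 424 had an unadjusted p below 0.05.

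The 3 Nlrp1 genes on chromosome 11 rose together. They encode cytosolic sensors of the NOD-like receptor family that can build an inflammasome, and Nlrp1c-ps is annotated as a pseudogene. Nlrp1a (chromosome 11, 71091197 to 71144704) had 35.7, 39.3 and 49.4 CPM in FD libraries, against 3.82, 0.639 and 2.13 CPM in those labelled WT (4.25 ± 0.50, adjusted p = 0.00206). Nlrp1b (chromosome 11, 71153102 to 71230733) had 264, 178 and 273 CPM in FD libraries, against 43.7, 43.6 and 44.3 CPM in those labelled WT (2.44 ± 0.19, adjusted p = 3.81e-05). Nlrp1c-ps (chromosome 11, 71242430 to 71285232) had 182, 136 and 236 CPM in FD libraries, against 1.31, 0.262 and 0.539 CPM in those labelled WT (8.09 ± 0.58, adjusted p = 0.00017). Every FD library was above the 6 others for each copy, and no other tested gene lies in the span of the 3. At most 0.0689% of the windows of any copy were shared with another, and their summed counts gave 3.31 ± 0.19 (adjusted p = 4e-06). Nlrp1a lost its call when the library labelled WT replicate 3 and FD replicate 3 were both left out (adjusted p = 0.21). The other 31 tested genes of inflammasomes and NOD-like receptors held 0 past edgeR's test, 6 with an unadjusted p below 0.05, and 2 past that of DESeq2, Nlrp3 and Nod1.

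The pair Bcl2a1d and Bcl2a1b on chromosome 9 moved in opposite directions. Both belong to a family of near-identical genes for a BCL2 relative that protects cells from apoptosis. Bcl2a1d (chromosome 9, 88723288 to 88731850) had 29.2, 33.5 and 20.6 CPM in FD libraries, against 3.85, 3.55 and 6.63 CPM in those labelled WT (2.57 ± 0.33, adjusted p = 0.0031), while Bcl2a1b (chromosome 9, 89199273 to 89207838) had 32, 25.7 and 23 CPM in FD libraries, against 49.9, 55.4 and 92.7 CPM in those labelled WT (-1.29 ± 0.23, adjusted p = 0.0342). Coding regions of the 3 copies in the table, Bcl2a1a among them, were 97.88 to 98.84% identical over 519 bases in GENCODE transcripts of GRCm38, and 54.7% and 56.8% of the windows of Bcl2a1d and Bcl2a1b were shared with another copy. Their first 60 coding bases are shown because only the 6 positions in capitals, at which the copies differ, tell them apart in this stretch.
Bcl2a1a: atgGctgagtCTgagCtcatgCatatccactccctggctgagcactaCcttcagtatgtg
Bcl2a1b: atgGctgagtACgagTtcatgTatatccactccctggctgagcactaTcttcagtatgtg
Bcl2a1d: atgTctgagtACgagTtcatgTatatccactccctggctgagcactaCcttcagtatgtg

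Summed over the 3 Bcl2a1 copies, the level was 76.7, 78.7 and 57.2 CPM in FD libraries, against 62.9, 71.2 and 116.9 CPM in those labelled WT, a change of -0.24 ± 0.22 that did not pass (adjusted p = 0.807). The calls of Bcl2a1d and Bcl2a1b are thus uncertain as to which copy gave the reads, and no change of the family as a whole was detected. Bcl2a1b had an adjusted p of 0.041 to 0.0967 with the library labelled WT replicate 3, FD replicate 2, FD replicate 3, MLIV replicate 2 or MLIV replicate 3 left out, where without the library labelled WT replicate 3 its change of -0.97 was under the threshold.

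On chromosome 17, Tagap1 and Ccr6 rose and Rnaset2b fell. Ccr6 (chromosome 17, 8236043 to 8257129), the receptor of the chemokine Ccl20, had 95.9, 88.6 and 59.3 CPM in FD libraries, against 3.43, 2.01 and 1.64 CPM in those labelled WT (5.12 ± 0.38, adjusted p = 3.81e-05), and was the 1 gene past the test among 19 chemokine receptors. Tagap1 (chromosome 17, 6954965 to 6961156), which encodes a GTPase-activating protein of T cells, had 30.7, 55.6 and 20.2 CPM in FD libraries, against 11.1, 10.1 and 7.43 CPM in those labelled WT (1.89 ± 0.34, adjusted p = 0.0345). Of its windows 58.0% were shared with its copy Tagap or with other genes. The summed level of Tagap1 and Tagap was 103.4, 178.2 and 74.0 CPM in FD libraries, against 128, 186.1 and 193.5 CPM in those labelled WT, and the change of -0.51 ± 0.28 did not pass (adjusted p = 0.683). Most of that sum came from Tagap, whose own change was -0.94, so the sum does not test the change of Tagap1 itself. The adjusted p of Tagap1 was 0.0869, 0.0855, 0.0848 and 0.0981 with WT replicate 1, WT replicate 2, the library labelled WT replicate 3 or FD replicate 2 left out. Rnaset2b, a ribonuclease of lysosomes and the extracellular space, had 8.28, 5.91 and 13.9 CPM in FD libraries, against 61.8, 78.5 and 116 CPM in those labelled WT (-3.19 ± 0.31, adjusted p = 0.000618). Its entry in the count table (chromosome 17, 6978860 to 8147832) spans both copies of the gene, with 46.2% of its windows shared, so the copy that changed is uncertain. Rnaset2a is also listed in the count table and shares windows with it. Their counts were not summed, so a change over both copies was not tested. Ccr6 and Rnaset2b kept their calls under every alternative.

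**Figure D4:**
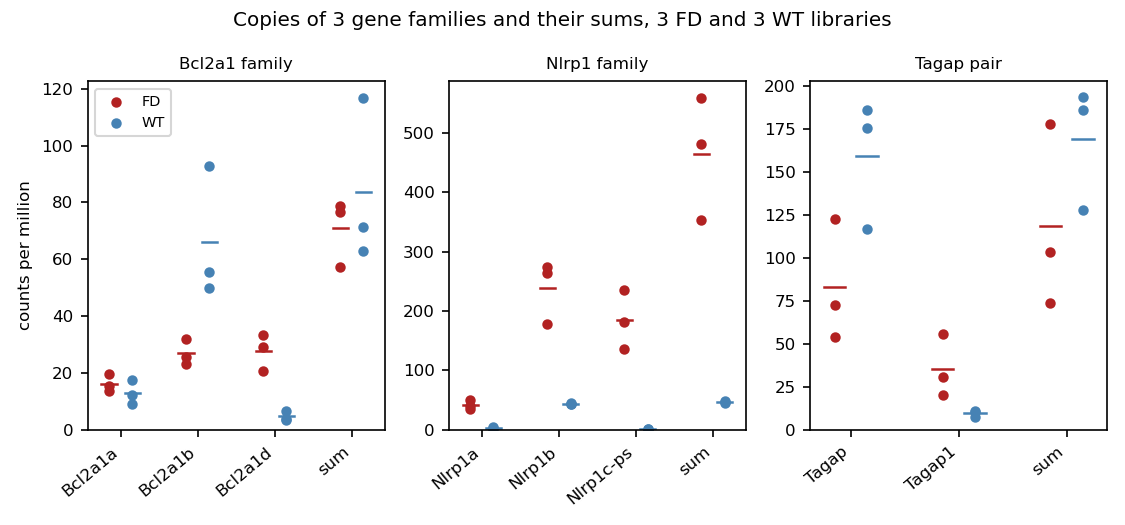
Levels in CPM of the copies of the Bcl2a1, Nlrp1 and Tagap families and of their sums in 3 FD (red) and 3 WT (blue) libraries, 1 point per library with a line at the mean of the 3. FD and WT sums overlap for the Bcl2a1 and Tagap families but lie apart for Nlrp1, at 352.9 to 558.9 CPM in FD libraries and 44.5 to 48.8 CPM in those labelled WT.

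On chromosome 9 a group of 4 neighbours fell together. Atp2c1 (chromosome 9, 105411362 to 105521257), the calcium and manganese pump of the Golgi apparatus, had 129.5, 126 and 111 CPM in FD libraries, against 262, 313 and 304 CPM in those labelled WT (-1.26 ± 0.15, adjusted p = 0.00153). Rpl29 (chromosome 9, 106429539 to 106431567), a protein of the large ribosomal subunit, had 6.10, 7.16 and 6.70 CPM in FD libraries, against 92.1, 103 and 196 CPM in those labelled WT (-4.29 ± 0.27, adjusted p = 7.69e-06). Abhd14b (chromosome 9, 106448640 to 106452918), an α/β hydrolase, had 0, 7 and 0 counts in FD libraries, against 210, 230 and 297 counts in those labelled WT, 102-fold lower in FD (49.4 to 255-fold by counting error, -6.59 ± 0.97, adjusted p = 0.00994). It was thus at 0 in all FD libraries but replicate 2. Mapkapk3 (chromosome 9, 107254927 to 107289877), a kinase downstream of p38, had 6.97, 4.89 and 7.17 CPM in FD libraries, against 17.5, 19.4 and 22.6 CPM in those labelled WT (-1.64 ± 0.24, adjusted p = 0.00853). Between and around them 7 of the 104 other tested genes (6.73%) had an unadjusted p below 0.05. Of their windows 16.5% (Atp2c1), 23.5% (Rpl29), 15.2% (Abhd14b) and 0 (Mapkapk3) were shared with other genes. Atp2c1 and Rpl29 kept their calls under every alternative, whereas a fit of FD and WT libraries alone gave adjusted p-values of 0.257 for Abhd14b and 0.0802 for Mapkapk3. Rpl29 was the 1 gene past edgeR's test among 80 tested cytosolic ribosomal protein genes, whose median change was -0.62, or -0.08 without the library labelled WT replicate 3. Of the other 79, 25 had an unadjusted p below 0.05, all lower, and DESeq2 also called Rps25.

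The remaining 3 pairs each moved in 1 direction. Marcksl1 (chromosome 4, 129513581 to 129515981), an actin-binding substrate of protein kinase C, had 59.8, 45.9 and 42.8 CPM in FD libraries, against 21.7, 20.1 and 28.7 CPM in those labelled WT (1.08 ± 0.20, adjusted p = 0.0399), and Fam167b (chromosome 4, 129576815 to 129578580), 0.0608 Mb further on, had 67.5, 66.5 and 81.6 CPM in FD libraries, against 25.1, 25.8 and 25.9 CPM in those labelled WT (1.49 ± 0.16, adjusted p = 0.000723). Hist3h2a (chromosome 11, 58954685 to 58955192), a histone H2A gene, had 29.6, 32.3 and 41.8 CPM in FD libraries, against 15.1, 13 and 13.6 CPM in those labelled WT (1.31 ± 0.20, adjusted p = 0.0113), with 29.8% of its windows shared. Its neighbour 2610507I01Rik (chromosome 11, 59197793 to 59202431) had 30.4, 25.2 and 30.0 CPM in FD libraries, against 6.01, 4.77 and 3.91 CPM in those labelled WT (2.54 ± 0.28, adjusted p = 0.000857). Both pairs rose. Ablim1 (chromosome 19, 57033264 to 57216032), an actin-binding LIM protein, had 1.56, 2.46 and 0.603 CPM in FD libraries, against 10.6, 18.2 and 7.91 CPM in those labelled WT (-2.98 ± 0.51, adjusted p = 0.0271), and Atrnl1 (chromosome 19, 57611034 to 58133340), a relative of attractin, had 2.86, 2.17 and 2.14 CPM in FD libraries, against 10.6, 10.4 and 10.4 CPM in those labelled WT (-2.13 ± 0.36, adjusted p = 0.0263). This pair fell.

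Within these pairs the evidence was uneven. Fam167b and 2610507I01Rik kept their calls under every alternative. The adjusted p of Marcksl1 was 0.0632 to 0.241 with WT replicate 1, WT replicate 2, FD replicate 1, FD replicate 2, MLIV replicate 1, MLIV replicate 2 or MLIV replicate 3 left out. For Hist3h2a it was 0.0759 with WT replicate 2 left out, and for Ablim1 it was 0.0522, 0.0897 and 0.0715 with WT replicate 1, WT replicate 2 or FD replicate 1 left out. Atrnl1 had 0.0533 to 0.116 with WT replicate 1, WT replicate 2, the library labelled WT replicate 3, FD replicate 1, FD replicate 2, MLIV replicate 2 or MLIV replicate 3 left out. Whether any of the 7 groups lies on a variant of the colony was not tested, since the reads themselves were not analysed here.

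The FD libraries were also set against the 3 MLIV libraries in the same fit, a comparison that shares its FD libraries with the one above. MLIV levels overlapped with those labelled WT in 30 of the 45 genes and with FD in 1, Stox2. Without the library labelled WT replicate 3, an alternative added after seeing the data, they overlapped with WT in 20, and the 10 that overlapped through that library alone were Spint1, Serpine2, Nrp1, Rnf26, Zfp36l1, Ccdc162, Bcl2a1d, Bcl2a1b, Mapkapk3 and Rnaset2b. The 45 genes were chosen for FD lying apart from WT, and overlap of MLIV was not counted over all tested genes. These counts therefore do not show that MLIV libraries resemble those labelled WT. Slc1a3 had 205, 246 and 234 CPM in MLIV libraries, and the change of FD against MLIV was 3.52 ± 0.23, adjusted p = 1.08e-05. Spint1 had 116, 112 and 107 CPM there. Both were thus far from the FD level in every MLIV library. Gatm, at 112, 116 and 111 CPM (2.30 ± 0.16, adjusted p = 1.77e-05), was above the libraries labelled WT and far below FD. For genes with intermediate MLIV levels the change of FD against MLIV was smaller, 0.94 ± 0.29, adjusted p = 0.105 for Tns1 and 1.13 ± 0.29, adjusted p = 0.0685 for Pde2a, and for Stox2 it was 0.26 ± 0.38, adjusted p = 0.79.

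Beyond the 45 genes, lists of genes that bear on Fabry disease and on microglia held few members past the test. At an adjusted p below 0.05 and any fold, 0.169% of all genes tested were higher and 0.169% lower, and the median change over all genes was -0.08. In edgeR's test 0 of 55 lysosomal hydrolases and membrane proteins passed (median change -0.35, 16 at an unadjusted p below 0.05), where DESeq2 gave 3, all lower (Arsb, Ctsh and Glb1). Glb1, the lysosomal β-galactosidase, had 25.1, 22.9 and 15.7 CPM in FD libraries, against 30.4, 39.1 and 65.9 CPM in those labelled WT (-1.09 ± 0.27, adjusted p = 0.197). Of 21 genes of globo-series and neutral glycosphingolipid metabolism 0 passed in edgeR (median -0.30, 3 at an unadjusted p below 0.05) and 1 in DESeq2. For microglial activation genes the counts were 0 of 36 (median -0.46, 8 at an unadjusted p below 0.05, 1 in DESeq2), and for the type I interferon response 0 of 29 (median -0.99, 2 at an unadjusted p below 0.05, 1 in DESeq2). The medians of both lists rest on the library labelled WT replicate 3, and without it they were 0.16 and 0.18, above 0, where Ccl6 alone passed among the activation genes. Ifit3, for example, had 18.9, 12.9 and 3.15 CPM in FD libraries, against 13, 16.5 and 103 CPM in those labelled WT. Without that library the median was -0.15 for the lysosomal list and -0.10 for glycosphingolipid metabolism, with 0 past the test in either. Over all genes tested in that fit the median was -0.12.

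Of 28 lists 9 held a gene past edgeR's test, and every such gene is among the 45. They were Nlrp1a, Nlrp1b and Nlrp1c-ps of 34 tested genes of inflammasomes, Slc1a3 of 21 genes of glutamate transport and metabolism and of 8 astrocyte markers, Gatm of 12 genes of creatine and arginine metabolism, Pde2a of 21 phosphodiesterases, Ccr6, Spint1 with Serpine2, Rpl29, and Lcn2 of 10 neutrophil markers. Of the 45 genes 11 were in a list at all, 6 of them isolated. Markers of monocytes (0 of 7), border macrophages (0 of 7), T and NK cells (0 of 5), B cells (0 of 2), oligodendrocytes (0 of 6), neurons (0 of 8), endothelium (0 of 5), pericytes (0 of 4), erythroid cells (0 of 1) and choroid plexus (0 of 3) held no gene past the test in edgeR or DESeq2, with at most 1 of any list at an unadjusted p below 0.05. Both tools also gave 0 for microglial identity (0 of 13, 3 at an unadjusted p below 0.05), immediate-early genes (0 of 25, 1), antigen presentation (0 of 23, 1), complement (0 of 19, 3) and cholesterol and lipid handling (0 of 26, 4).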

How the data were processed

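RNA of sorted microglia was prepared by the authors with a stranded kit for low input, aligned with STAR 2.5.1 to mm10 and counted by featureCounts (version 1.4.6-p3) in a run that named 21 libraries. Columns of 9 of them were used. The deposited counts per gene are whole numbers that were not normalized, and the command names no option for strand or read pairs. Of the per-sample columns 0 were left out. Tables of the authors' own comparisons (DESeq2 means, fold changes and p-values) were not used.

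Genes were kept by filterByExpr, scaled with TMM factors and fitted with 1 mean per group over 9 libraries by edgeR 4.0.16's robust quasi-likelihood model (R 4.3.3). P-values were adjusted by Benjamini-Hochberg over 15340 genes and the SE is the log2 change divided by the square root of F. CPM are per scaled library of kept genes. Neighbour distance is the gap between gene spans. Transcript windows of 100 bases, as long as a read, were matched between genes in GENCODE vM21. DESeq2 1.42.0, other scalings and filters, a block and left-out libraries were alternatives, and sums over gene copies were added after seeing the data. The procedure was tested on simulated data. Intervals cover counting error only. The members and the 28 gene lists were chosen with earlier results of these data known. Every called autosomal gene was named except 1 that is not reported here, and Plcb2, Nlrp3, Nod1, Rps25, Arsb, Ctsh, Ccl6, Ifit3 and Glb1 were named after their values were seen. No 2 of 36 pairs of libraries were duplicates.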

Additional observations from a re-analysis of the deposited data

Results flagged for a closer look

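Xist, an X-linked gene outside the autosomal comparison, had 1522 CPM in FD replicate 1, 1459 CPM in FD replicate 2 and 1358 CPM in FD replicate 3, above the 0.523 to 4.12 CPM of the libraries labelled WT. It was singled out as a signal in genes that the comparison did not use.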

How the results depend on the processing

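The 45 called autosomal genes, 18 clustered and 27 isolated, kept their direction under every alternative fit of the single genes. Calls in every fit that tested the gene were kept by 20 genes, 11 isolated and 9 clustered, and lost in at least 1 by 25. DESeq2 gave 111 genes, 64 clustered and 47 isolated, with all 45 among them, and with its prior on fold changes 82, 38 and 44. The FD and WT libraries alone gave 26 genes, 7 of them clustered, and of the 26 there were 19 higher and 7 lower. Without a filter on low counts 31 genes were clustered. At an adjusted p below 0.01 there were 24, with 9 clustered and 15 isolated. Left-out libraries gave 35 to 67 genes, 12 to 29 clustered and 21 to 38 isolated, the highest without FD replicate 3. Without both the library labelled WT replicate 3 and FD replicate 3 the counts were 85, 37 and 48, with 40 genes shared. A window of 10 Mb gave 28 clustered and 17 isolated genes, as did neighbours at an unadjusted p below 0.001. The cause of these differences was not tested. The summed copies gave a change of -0.24 for the Bcl2a1 family and of -0.51 for Tagap1 with Tagap. Tagap gave most of the latter sum, which is therefore no test of the change of Tagap1 itself.

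With the replicate number as a block there were 32 genes, 11 clustered and 21 isolated, 30 of them shared. Genes that lost their call there included Tns1, Serpine2, Slamf8, Ccdc162, Lcn2, Pvrl2, Stox2, Nrp1, Naalad2, Rnf26, Tagap1, Atrnl1, Marcksl1 and Bcl2a1b. Scaling by library totals ended the calls of Tagap1, Rnf26 and Limd1. The prior of DESeq2 ended those of Zfp36l1 and Marcksl1, and the fit without a filter on low counts that of Nrp1. Deviations of same-numbered FD and WT libraries correlated at -0.0141, -0.298 and 0.19, and those of other pairs at -0.311 to 0.443. With 3 libraries per group these values cannot show whether the numbers pair the libraries. In the gene lists, 17 of the counts over edgeR's alternatives moved, each by 1 gene, and DESeq2 moved the counts of 7 lists by 1 to 5 genes. Levels of Spint1, Crabp2 and Abhd14b in FD libraries rest on at most 7 counts a library.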
